A study of Mus musculus with 6 samples.

Results

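Bulk RNA was profiled in whole bone marrow taken from mice that carried transplanted Dnmt3a knockout marrow. The mice received vehicle alone, the baseline of the series without inhibitor. The libraries were chosen by their treatment label, and 3 of the 6 libraries of the series bear it. All 6 share the Dnmt3a knockout and the transplant into irradiated C57BL/6 recipients, and they differ in whether the recipients received vehicle or a PI3Kalpha/beta inhibitor (75 mg/kg) over 21 days. The inhibitor-treated libraries were not compared here. The labels call the transplanted cells leukemic. They name no promoter, Cre line, deleted exon, age or donor share of the marrow, and the recipient's own stroma and other surviving cells can contribute RNA to whole marrow. They do not state that each library is a separate mouse, so the spread between libraries may be partly technical. No group other than vehicle enters the values below, and no p-value was computed.

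Bone marrow makes blood cells from stem cells through committed precursors, and in mice maturing neutrophils are among its most common cells. Neutrophils fill their granules in order. Promyelocytes make primary granule proteins such as myeloperoxidase, myelocytes make secondary granule proteins such as lactoferrin, and later stages make gelatinase and surface receptors. Resident macrophages of the marrow surround dividing red cell precursors, take up the nuclei these expel and recycle iron. Dnmt3a adds methyl groups to unmethylated DNA, and its loss in blood stem cells is known to favour self-renewal over differentiation.

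The vehicle libraries held 33762431, 34518818 and 59384880 counts over the 14992 genes of the table, in the order vehicle 1, vehicle 2 and vehicle 3, which is kept throughout. Between 14722 and 14760 genes had at least 1 count in a library. Levels of different genes are given as TPM, the counts divided by gene length and scaled to a sum of 1000000 per library. Adult globin and mitochondrially encoded genes were not among those analysed. Shares of TPM and ranks are therefore of the analysed genes, not of all marrow RNA. Ratios between libraries are called by CPM, the counts per 1000000 after TMM scaling over the 3 libraries. Values of single genes per library are mostly printed as TPM, which is not TMM-scaled. Vehicle 1 stood apart from the other libraries. Across 11613 genes with a mean CPM of at least 1, Spearman's rho of log2(CPM + 1) was 0.994 between vehicle 2 and vehicle 3, 0.950 between vehicle 1 and vehicle 2, and 0.955 between vehicle 1 and vehicle 3. These correlations are across genes, which are not independent replicates. A ratio of at least 2 was reached by 99 genes (0.852%) between vehicle 2 and vehicle 3, by 1849 between vehicle 1 and vehicle 2 and by 1754 between vehicle 1 and vehicle 3. Counts of vehicle 2 and vehicle 3 differed by 27.3 times counting noise (chi-square per degree of freedom), so they are not one library deposited again. The biological coefficient of variation was 29.96% over the 3 libraries and 10.8% without vehicle 1. Every value below is therefore given per library, so that each can be read with and without vehicle 1.

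Neutrophil granule and S100 genes led the list of abundant genes in every vehicle library. S100a8 and S100a9, the calcium-binding pair that forms calprotectin, were the top genes. S100a8 stood at 41534, 71926 and 59049 TPM (57503 ± 15255, SD, n = 3). S100a9 stood at 40868, 69083 and 59483 TPM. Both were lowest in vehicle 1, yet their ratio hardly moved, at 1.02, 1.04 and 0.99 in the 3 libraries. The genes lie 22.6 kb apart on chromosome 3 (GRCm38.p6, the build called mm10), S100a8 at 90669071 to 90670034 and S100a9 at 90692630 to 90695721. Together the pair took 8.24%, 14.1% and 11.9% of all TPM.

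Next came Ngp, a cathelicidin-related protein of neutrophil granules, at 16831, 20372 and 23239 TPM. Lyz2, the lysozyme of neutrophils, monocytes and macrophages, stood at 8171, 16232 and 15780 TPM. Camp, the cathelicidin antimicrobial peptide, had 7046, 11525 and 9833 TPM, and Lcn2, an iron-siderophore binding lipocalin, had 6333, 9372 and 10576 TPM. Each of these granule genes was lowest in vehicle 1. Eef1a1, the elongation factor that brings transfer RNA to the ribosome, ran the other way at 10375, 8917 and 8129 TPM. The remaining members of the leading 10 were Tmsb4x and Actb, an actin-binding peptide and actin itself, and Retnlg, a secreted resistin-like protein of neutrophils. The same 10 genes led all 3 libraries and took 15.0%, 23.2% and 21.2% of all TPM. The leading 100 took 35.2%, 40.6% and 38.1%, and 76 genes were in the leading 100 of every library. Among the 100 genes with the highest mean TPM, 46 encode cytosolic ribosomal proteins, 20 belong to the neutrophil lists and 6 to the actin list.

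**Figure D1:**
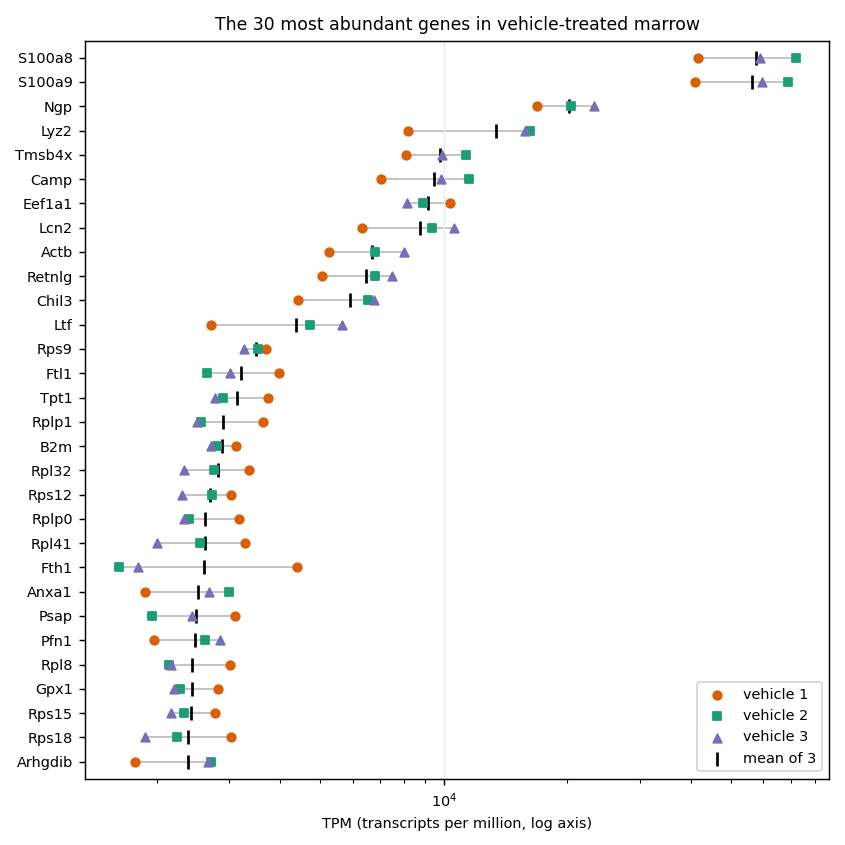
TPM on a log axis of the 30 genes with the highest mean over the vehicle-treated libraries, one point per library, a tick at the mean of 3 and a grey line over the range. S100a8 and S100a9 sit at the top in every library, and neighbouring genes below Lyz2 overlap.

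The order of single genes within this group was mostly not resolved. Of the 29 neighbouring pairs among the 30 most abundant genes, 27 overlapped in their ranges over libraries, and in 9 the higher gene was above the lower one in all 3 libraries. Only Ngp was clear of both neighbours, below S100a9 and above Lyz2 in every library. Ribosomal protein genes filled much of the list below it, such as Rps9 at 3693, 3519 and 3266 TPM and Rplp1 at 3634, 2564 and 2511 TPM. Fth1, the ferritin heavy chain that stores iron, was the gene of the leading 30 with the widest ratio between libraries, at 4385, 1620 and 1796 TPM. A total of 291, 216 and 260 genes made up 50% of all TPM.

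Secondary granule genes outweighed primary ones throughout the neutrophil programme. The 12 primary granule genes summed to 0.889%, 1.19% and 1.09% of TPM, the 16 secondary granule genes to 5.10%, 7.66% and 8.01%, and the 30 late maturation genes to 10.1%, 16.7% and 14.5%. The late share rested on S100a8 and S100a9, since the other 28 late genes summed to 1.89%, 2.60% and 2.69%, below the secondary genes. With no length term the means of the late and secondary lists were 4.32% and 4.36%, and with the 10 most abundant genes out of the total they were both 2.20%, so those lists had no fixed order. All 58 genes together took 16.1%, 25.6% and 23.6%. Ltf, Camp, Ngp and Lcn2 together exceeded Mpo, Elane, Ctsg and Prtn3 by 10.5, 9.20 and 10.2 times. The ratio of these chosen genes thus varied by less than the total did, and was highest in vehicle 1. The full lists gave another order, with secondary over primary lowest in vehicle 1 and highest in vehicle 3. Mpo, the peroxidase that makes hypochlorous acid, was at 1175, 1770 and 1816 TPM. Elane, neutrophil elastase, was at 874, 1297 and 1267 TPM, and Prtn3, proteinase 3, was at 668, 1200 and 1173 TPM. These serine protease genes lie 3.1 kb apart on chromosome 10. In bulk marrow, fewer cells of a type and less RNA per cell cannot be told apart, so these shares are of RNA and not of cells.

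Most neutrophil genes were lowest in vehicle 1, though few by 2-fold at the early stages. A gene is called 2-fold here when its highest library reached at least 2 times the CPM of its lowest. Over all 11613 genes compared, 2141 (18.4%) met that, 1320 (11.4%) highest in vehicle 1 and 798 (6.87%) lowest there. Vehicle 2 was lowest in 898 (7.73%) of them and vehicle 3 in 445 (3.83%). In the primary list 1 of 12 genes met it, in the secondary list 3 of 16 and in the late list 10 of 30, beside the 18.4% of all genes. The late genes named next were picked with their values known. Cxcr2, the chemokine receptor that draws mature neutrophils out of the marrow, had 127, 328 and 399 TPM. Fpr1, a receptor for bacterial formyl peptides, had 93.4, 273 and 258 TPM, and Mmp9, gelatinase B, had 581, 1235 and 1452 TPM. All 3 were far lower in vehicle 1 than in the other libraries, whose values lay close together. Ifitm6 differed little, at 2157, 2141 and 2206 TPM. Trem1, an amplifying receptor of inflammation, and Stfa2, a cysteine protease inhibitor, were the late genes that were highest in vehicle 1 by 2-fold, with 163, 62.97 and 77.7 TPM and 32.4, 12.1 and 11.9 TPM. The Stfa genes are near-identical copies, so their counts are uncertain.

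Because the granule genes were abundant and moved together between libraries, their start regions were read from RefSeq (GRCm38.p6), of which 48 of the 58 genes had a window of 250 bases before to 50 after the start. Below are the bases from 250 to 51 before the start, 5′ to 3′ on the gene's strand. Capitals mark TTNCNNAA, letters like those bound by C/EBP factors, in S100a8, S100a9, Ngp, Ltf and Lcn2 and AGGAAGT, letters like those bound by PU.1, in S100a8, Mpo and Prtn3, on either strand. The regions are chr3:90668821-90669020 (plus strand) for S100a8, chr3:90695772-90695971 (minus) for S100a9, chr9:110419558-110419757 (plus) for Ngp, chr9:109849507-109849706 (minus) for Camp, chr9:111019042-111019241 (plus) for Ltf, chr2:32387790-32387989 (minus) for Lcn2, chr11:87793534-87793733 (plus) for Mpo and chr10:79879417-79879616 (plus) for Prtn3.
S100a8: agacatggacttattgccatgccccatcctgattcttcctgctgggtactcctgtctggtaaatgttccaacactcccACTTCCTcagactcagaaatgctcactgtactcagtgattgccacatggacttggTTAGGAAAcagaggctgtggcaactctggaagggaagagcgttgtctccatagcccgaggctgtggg
S100a9: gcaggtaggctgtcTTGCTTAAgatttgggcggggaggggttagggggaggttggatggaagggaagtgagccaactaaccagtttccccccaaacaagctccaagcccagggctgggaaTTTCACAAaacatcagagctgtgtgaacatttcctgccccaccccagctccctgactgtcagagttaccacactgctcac
Ngp: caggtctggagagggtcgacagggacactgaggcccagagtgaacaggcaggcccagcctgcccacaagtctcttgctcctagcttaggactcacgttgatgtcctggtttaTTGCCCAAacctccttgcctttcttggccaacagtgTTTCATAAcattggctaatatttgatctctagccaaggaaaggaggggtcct
Camp: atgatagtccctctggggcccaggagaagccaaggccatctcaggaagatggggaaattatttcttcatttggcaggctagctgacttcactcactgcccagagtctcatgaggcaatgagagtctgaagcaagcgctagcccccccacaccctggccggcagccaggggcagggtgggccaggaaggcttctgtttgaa
Ltf: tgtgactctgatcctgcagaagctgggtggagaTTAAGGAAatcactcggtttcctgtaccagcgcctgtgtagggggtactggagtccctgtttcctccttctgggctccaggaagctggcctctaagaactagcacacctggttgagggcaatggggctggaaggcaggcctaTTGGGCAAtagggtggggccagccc
Lcn2: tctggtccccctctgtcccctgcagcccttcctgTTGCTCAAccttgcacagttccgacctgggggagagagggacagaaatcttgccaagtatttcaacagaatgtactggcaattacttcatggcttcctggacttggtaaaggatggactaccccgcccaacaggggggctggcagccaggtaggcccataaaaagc
Mpo: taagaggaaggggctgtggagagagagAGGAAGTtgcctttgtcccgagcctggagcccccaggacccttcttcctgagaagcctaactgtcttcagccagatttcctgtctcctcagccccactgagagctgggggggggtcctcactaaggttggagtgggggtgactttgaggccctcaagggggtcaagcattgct
Prtn3: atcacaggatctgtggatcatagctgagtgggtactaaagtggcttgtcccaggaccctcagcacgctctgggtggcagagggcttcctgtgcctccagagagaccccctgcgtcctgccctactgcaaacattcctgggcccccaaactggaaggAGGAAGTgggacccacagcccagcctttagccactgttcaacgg

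The first 6 are shown because these genes are abundant, and Mpo and Prtn3 because they are early granule genes. They were picked with their matches known and do not stand for the whole list. Camp, among the most abundant granule genes, held neither set of letters in this stretch. Lyz2 is not shown, and its window held the complement of AGGAAGT 100 bases and that of TTNCNNAA 55 bases before the start. In the printed stretch, TTNCNNAA or its complement lies 117 bases before the S100a8 start, 236 and 130 before S100a9, 138 and 102 before Ngp, 217 and 75 before Ltf and 216 before Lcn2. AGGAAGT or its complement lies 172 bases before S100a8, 223 before Mpo and 94 before Prtn3. Over the 300-base windows, TTNCNNAA was found in 8 of 13 secondary and 16 of 24 late genes but in 3 of 11 primary genes, beside 40.7% of the 27025 reference windows and 32.1% of those of the table's genes. AGGAAGT was found in 6 of 11 primary, 5 of 13 secondary and 4 of 24 late genes, beside 9.57% of reference windows. AGATAA, letters like those bound by GATA factors, was found in 10 of the 48 windows. It was in 11.4% of reference windows and 6.88% of those of the table's genes. In the B-cell progenitor list, AGGAAGT was found in 6 of 15 windows, TTNCNNAA in 7 and AGATAA in 1, so AGGAAGT was not particular to granule genes. Matches to TTNCNNAA and AGGAAGT overlapped in 0.596% of reference windows, and those to TTNCNNAA and AGATAA in 0.122%. A match describes the letters of the window only. Shares are not given for the macrophage, erythroid and ribosomal lists, for which fewer than 80% of genes had a window. Of the table's genes 77.1% had one, so their shares are a rough base only.

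Transcription factors of the myeloid lineages were present at moderate levels. Spi1, which encodes PU.1, had 428, 495 and 585 TPM. Among the C/EBP family, Cebpa, needed for the first granulocyte step, had 60.4, 62.5 and 78.6 TPM. Cebpe, needed for secondary granules, had 83.2, 211 and 230 TPM. Cebpb, used in emergency granulopoiesis and in macrophages, had 479, 166 and 284 TPM. Cebpe was therefore lowest in the same library in which the secondary granule genes were lowest, and Cebpb was highest there. Cebpb stood at 5.77 times Cebpe in vehicle 1, 0.787 times in vehicle 2 and 1.24 times in vehicle 3. Irf8, a monocyte and dendritic cell factor, differed less, at 105, 139 and 145 TPM. Of the 22 factors listed, 5 differed 2-fold (background 18.4%), and all 21 neighbouring pairs in their order of level overlapped between libraries.

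**Figure D2:**
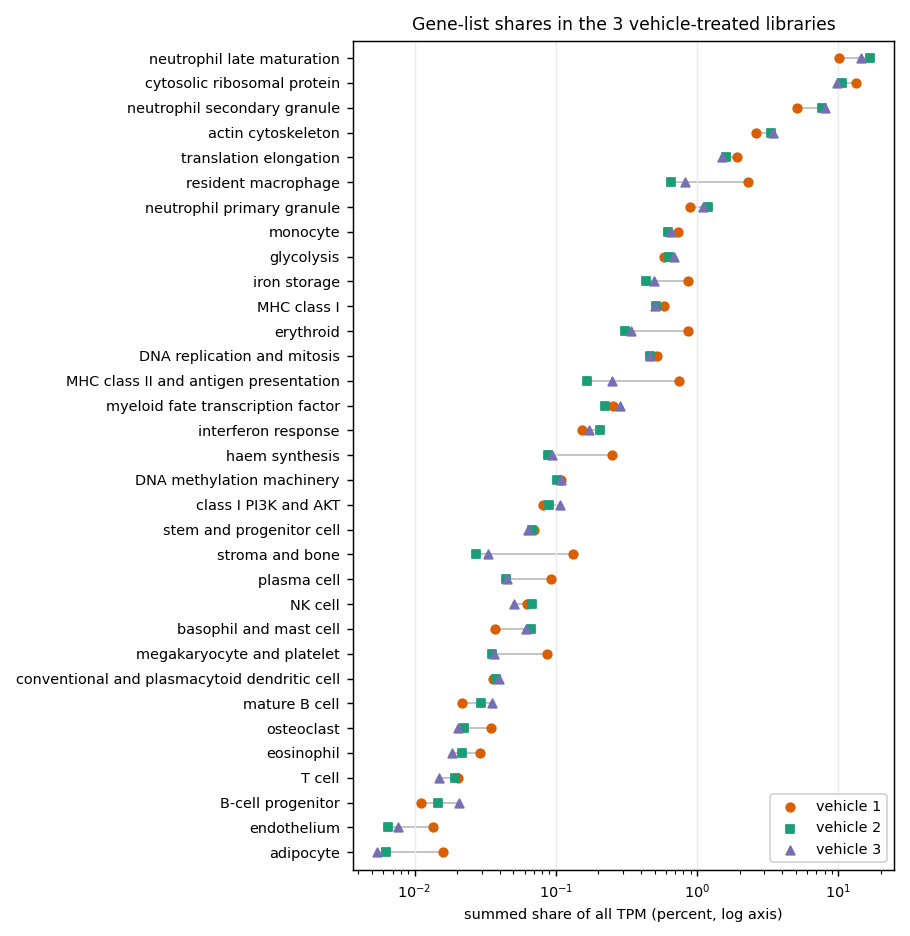
Summed share of all TPM, in percent on a log axis, of each gene list in each vehicle-treated library, lists ordered by their mean. Neutrophil lists sit lowest in vehicle 1, while the macrophage, erythroid, haem synthesis, MHC class II, megakaryocyte and stroma lists sit clearly highest there.

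Markers of resident macrophages were higher in vehicle 1 than in the other libraries. The 26 genes summed to 2.29%, 0.648% and 0.827% of TPM. Of these genes 20 differed 2-fold with vehicle 1 highest (background 11.4%), and none with vehicle 1 lowest. The complement genes C1qa, C1qb and C1qc, which lie side by side on chromosome 4, moved together. C1qa had 2212, 519 and 691 TPM, and its ratio to C1qb was 1.14, 1.19 and 1.15. Apoe, a lipid carrier made in quantity by macrophages, had 4472, 900 and 1383 TPM. The haemoglobin scavenger receptor Cd163 had 492, 87.8 and 96.6 TPM, and Timd4, a receptor for dying cells, had 197, 33.7 and 48.6 TPM. Vehicle 2 was lowest in 21 of the 26 list genes, beside 3439 of all 11613. For each gene just named, vehicle 1 lay above both other libraries, which were nearer to each other than to vehicle 1. Not all list members shared this. Slc40a1, the iron exporter ferroportin, had 210, 188 and 206 TPM, and Spic, a factor of red pulp and marrow macrophages, was lowest in vehicle 1 at 13.5, 24.6 and 20.3 TPM. Cd163, Timd4, Slc40a1 and Spic lie outside the naming rule and were picked with their values known.

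Genes of MHC class II, which present peptides to helper T cells, were also highest in vehicle 1. The 12 genes summed to 0.739%, 0.166% and 0.248% of TPM, and 6 of 12 differed 2-fold with vehicle 1 highest (background 11.4%). Cd74, the invariant chain, had 3016, 654 and 988 TPM. H2-Aa, an alpha chain, had 1868, 380 and 602 TPM, and its ratio to the beta chain gene H2-Ab1 stayed at 1.33, 1.24 and 1.30. The class II transactivator Ciita, chosen after its values were seen, did not stand apart in vehicle 1, with 6.04, 3.58 and 6.09 TPM. Genes listed for dendritic cells, another class II bearing type, summed to 0.036%, 0.038% and 0.040%. The largest members, Irf8 and Bst2, with means of 130 and 111 TPM, are also in other lists here. Siglech, a plasmacytoid dendritic cell receptor, was at 20.7, 19.8 and 23.4 TPM, and Clec10a at 45.2, 22.6 and 23.9 TPM. Of 16 genes compared, 3 were highest in vehicle 1 and 11 in vehicle 3, beside 5078 and 3471 of all 11613. MHC class I genes, carried by nearly all cells, were at 0.580%, 0.510% and 0.501%, and 0 of 10 differed 2-fold (background 18.4%). With only 10 genes, 0 is not far below that share.

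Monocyte genes did not all share one order of libraries. The sum differed little, at 0.738%, 0.618% and 0.652% of TPM, but 7 of 20 genes differed 2-fold with vehicle 1 highest (background 11.4%) and 1 with vehicle 1 lowest (background 6.87%), a share no larger than the background. Ly6c2, a marker of classical monocytes that is also present on other marrow cells, had 991, 1850 and 1764 TPM. Ctss, a lysosomal protease of macrophages and antigen-presenting cells, went the opposite way at 2373, 863 and 1052 TPM. Among members chosen after their values were seen, Ccr2, the receptor with which classical monocytes leave the marrow, had 146, 435 and 448 TPM. The endotoxin co-receptor gene Cd14 had 500, 46.7 and 77.2 TPM, and Nr4a1, an early-response nuclear receptor, had 113, 9.45 and 14.3 TPM. The sum of the list thus joins named members of opposite order.

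Red cell precursors gave a signal that was also highest in vehicle 1. The 27 erythroid genes summed to 0.862%, 0.309% and 0.338% of TPM, and 23 of 27 differed 2-fold, all with vehicle 1 highest (background 11.4%). Slc4a1, the band 3 anion exchanger of the red cell membrane, had 998, 173 and 240 TPM. Car2, a carbonic anhydrase, had 1541, 601 and 638 TPM. The haem synthesis genes followed, 6 of 9 by 2-fold (background 11.4%), and Alas2, the first enzyme of the erythroid pathway, had 464, 104 and 102 TPM. Gata1, the master factor of red cell and platelet lineages and chosen after its values were seen, had 96.3, 33.9 and 38.3 TPM. The adult globin genes were not analysed here, and embryonic Hba-x and Hbb-y were at or near 0, below 1 TPM in each library. Megakaryocyte and platelet genes gave 0.086%, 0.035% and 0.036%, with 13 of 17 highest in vehicle 1 by 2-fold (background 11.4%). Pf4, platelet factor 4, had 410.5, 64.6 and 80.2 TPM.

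Genes of the non-blood compartment were mostly low, and their summed shares were also highest in vehicle 1. The stroma and bone list summed to 0.133%, 0.027% and 0.033% of TPM, with 10 of 16 compared genes highest in vehicle 1 by 2-fold (background 11.4%). Acta2, smooth muscle actin, went the other way by 2-fold, with 2.35, 8.15 and 7.75 TPM, and was picked with its values known. Spp1, which encodes osteopontin and is also made by macrophages, had 763, 108 and 149 TPM. It was the largest part of the list sums of 1328, 274 and 332 TPM. Ibsp, bone sialoprotein, had 93.1, 10.6 and 15.9 TPM. Cxcl12, the chemokine that holds stem cells in the marrow, had 81.9, 42.8 and 43.3 TPM. Bglap, the osteocalcin gene, was at 0 counts in vehicle 1, and Bglap2 at 0 counts in vehicle 3, where a count of 0 allows up to 3 counts. Endothelial genes summed to 0.013%, 0.006% and 0.008%, and 8 of 11 were highest in vehicle 1 by 2-fold (background 11.4%). How far stroma, macrophage and erythroid content together made vehicle 1 stand apart was not tested.

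**Figure D3:**
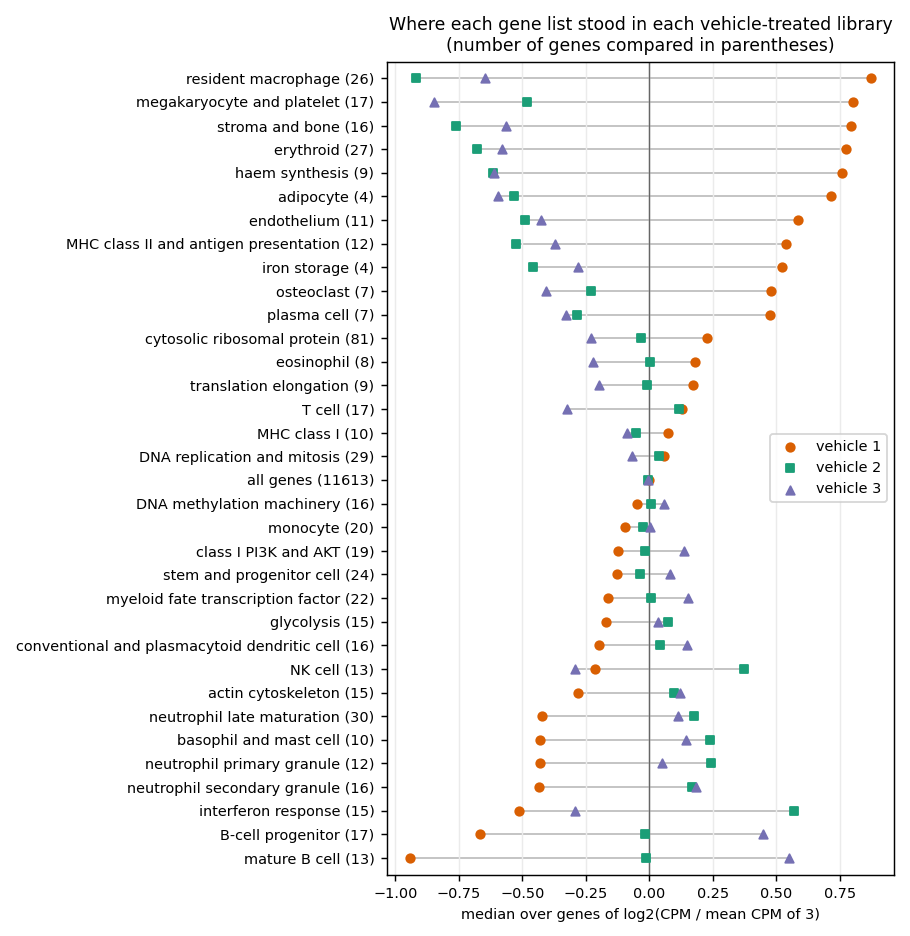
Median over the genes of each list of log2(CPM in a library over the mean CPM of 3), one point per library, lists ordered by vehicle 1. Macrophage, megakaryocyte, stroma and erythroid lists lie to the right in vehicle 1, interferon genes in vehicle 2 and B-lineage genes in vehicle 3, with all genes at the centre.

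Lymphoid genes were scarce, and the sums of the B-cell lists were lowest in vehicle 1 and highest in vehicle 3. The B-cell progenitor list summed to 0.011%, 0.015% and 0.021% of TPM and the mature B-cell list to 0.022%, 0.030% and 0.036%. The mature sum leaned on Cd37, at 110, 135 and 157 TPM, and Ltb, at 22.8, 74.6 and 74.4 TPM. The median of the list was 7.66 TPM. Vehicle 3 was highest in 8 of 17 progenitor genes and 7 of 13 mature genes by 2-fold (background 3.47%). Cd79b, a signalling chain of the B-cell receptor, had 17.4, 28.2 and 39.5 TPM. Rag1, the recombinase that rearranges antigen receptor genes, had 0.37, 2.73 and 5.92 TPM. Pax5, the factor that commits cells to the B lineage and chosen after its values were seen, had 1.42, 2.19 and 6.97 TPM. Rag1 and Pax5 also differed 2-fold between the otherwise similar vehicle 2 and vehicle 3, where 58 of 11613 genes (0.499%) were higher in vehicle 3 by that much. Plasma cell genes did not follow the B-cell order. Jchain, which joins secreted antibodies into polymers, had 639, 216 and 183 TPM. T-cell genes summed to 0.020%, 0.019% and 0.015%, and 1 of 17 differed 2-fold, below the 18.4% of all genes. The antigen receptor constant genes of T cells and antibody heavy chains were not analysed here.

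Interferon-response genes were highest in vehicle 2. The 15 genes summed to 0.153%, 0.204% and 0.173% of TPM, and 8 of 15 differed 2-fold with vehicle 2 highest (background 3.6%). Ifit1, an antiviral protein that binds foreign RNA, had 2.10, 20.2 and 8.17 TPM. Ifi27l2a, a small mitochondrial protein induced by interferon, had 54.6, 162 and 70.3 TPM. Both were also at least 2-fold higher in vehicle 2 than in vehicle 3, as were Ifit3 and Isg15, making 4 of the 15 genes beside 41 of all 11613 (0.353%). Irf7, a factor that amplifies the response, did not follow, with 155, 130 and 105 TPM. Ifitm3, the most abundant member, was at 969, 1153 and 1136 TPM. Among the lists plotted, this one had the widest gap in median between vehicle 2 and vehicle 3.

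Of the 30 single genes with the widest ratios between libraries, 10 for each highest library, only Ifit1 and Rag1 belong to any of the gene lists. Highest in vehicle 1 were Adamts1, an extracellular protease, at 42.7, 1.48 and 3.29 CPM, the anti-inflammatory cytokine Il10 at 27.6, 0.955 and 1.70 CPM and the neutrophil-attracting chemokine Cxcl2 at 143, 7.70 and 11.9 CPM. Marco, a scavenger receptor of macrophages, had 1020, 59.2 and 63.2 CPM, a ratio of 17.2. Lyve1, Cd209b, Hilpda, Tnfsf11, Fam20a and Fgf23 followed with ratios of 16.7, 14.1, 15.2, 16.1, 15.9 and 13.5. Highest in vehicle 2 were Ifit1bl2 at 0.529, 23.3 and 12.4 CPM, Ifit3b at 1.06, 14.1 and 5.57 CPM and Ifit1, all of one interferon-induced family whose near-identical members can share reads. Il1f9, which encodes the cytokine IL-36 gamma, had 16.5, 103 and 100.3 CPM, so that it set vehicle 1 apart and not vehicle 2. Highest in vehicle 3 was Rag1 at 1.26, 9.76 and 20.04 CPM, followed by Galnt9, Nlrp1a and Ifnlr1 with ratios of 8.09, 7.19 and 6.64. Lin28a, an RNA-binding protein that blocks let-7 maturation, had 14.6, 63.8 and 65.1 CPM.

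**Figure D4:**
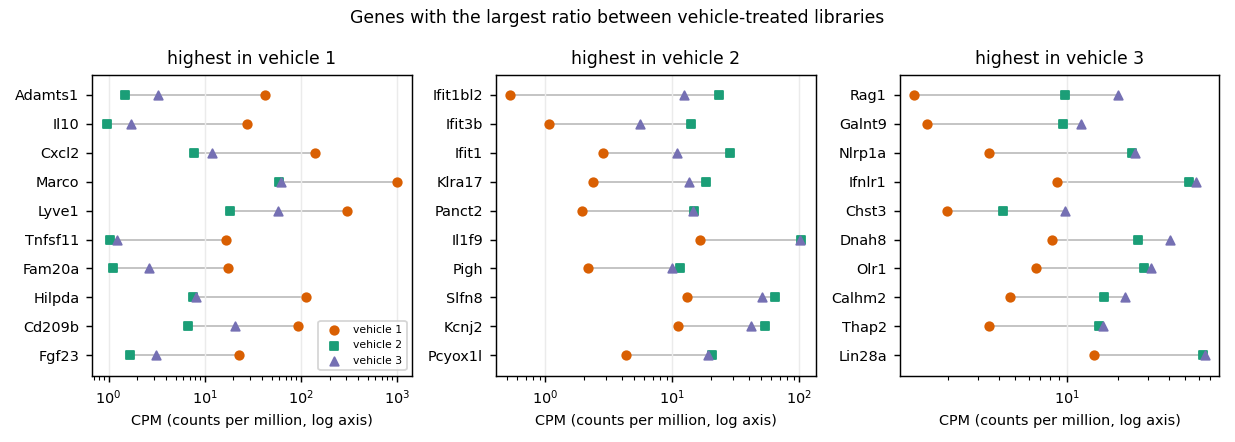
CPM on a log axis of the 10 genes with the largest ratio of highest to lowest library, one panel for each library that is highest and one point per library. Vehicle 1 lies at one end for every gene shown, and vehicle 2 and vehicle 3 lie closer to each other for most of them.

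Few genes of cell division and of the ribosome differed 2-fold between libraries. Those of DNA replication and mitosis summed to 0.516%, 0.461% and 0.463% of TPM, and 0 of 29 differed 2-fold (background 18.4%). Top2a, the topoisomerase of dividing cells, had 276, 364 and 356 TPM, and Pcna, the sliding clamp of replication, had 505, 431 and 392 TPM. Outside the neutrophil lists, a base chosen after the values were seen, the replication genes made up 0.616%, 0.619% and 0.606% of the remaining TPM. Stem and progenitor genes summed to a similar share in each library, 0.070%, 0.068% and 0.064%. Of 24 compared, 7 differed 2-fold (background 18.4%), 5 with vehicle 1 highest (background 11.4%) and 2 with vehicle 1 lowest (background 6.87%). Within them Kit, the stem cell factor receptor, had 21.5, 26.0 and 26.5 TPM, and Ly6a, the Sca-1 antigen that interferon also induces, had 181, 103 and 64.3 TPM (Kit was chosen after its values were seen). The cytosolic ribosomal protein genes summed to 13.3%, 10.7% and 9.74%, and 1 of 81 compared differed 2-fold (background 18.4%). Their smaller differences shared one order. Of the 81 genes, 77 were highest in vehicle 1 and 79 lowest in vehicle 3, beside 5078 and 3052 of all 11613. The steadiest genes with a mean of at least 100 TPM were Snd1 at 101, 97.0 and 102 TPM, Uba1, the main ubiquitin-activating enzyme, at 221, 215 and 226 TPM, and Nudc at 159, 155 and 162 TPM.

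Transcripts of the targeted gene were read in every vehicle library. Dnmt3a (chromosome 12, 3801559 to 3914443) had 5.01, 3.396 and 3.98 TPM, or 25.6, 18.1 and 20.1 CPM. These counts cover the whole gene, and the labels give no deleted exon, so they do not check the knockout. Dnmt1, which copies methylation after replication, had 109, 117 and 132 TPM, 21.8, 34.4 and 33.1 times Dnmt3a. Dnmt3b, the other enzyme that sets new methylation, had 5.46, 5.07 and 5.19 TPM, above Dnmt3a in each library. By CPM, which has no length term, Dnmt3b was below Dnmt3a in each, at 12.2, 11.8 and 11.4. The order of these genes thus rests on gene length, 4327 bases for Dnmt3b and 9947 for Dnmt3a. Among the enzymes that oxidise methylated cytosine, Tet3 had 10.4, 14.2 and 18.3 TPM and Tet2 had 8.90, 12.9 and 14.1 TPM, Tet3 being 1.17, 1.10 and 1.30 times Tet2. Tet1 stood at 0.18, 0.51 and 0.47 TPM. Uhrf1, which guides Dnmt1 to newly copied DNA, had 123, 111 and 126 TPM. Of 16 genes compared in the methylation list, 2 differed 2-fold (background 18.4%), Dnmt3l and Tet1, both low and lowest in vehicle 1.

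The class I PI3K genes encode the enzymes the inhibitor of the series addresses and their leukocyte-enriched relatives. Catalytic subunit levels followed the order Pik3cd, Pik3cg, Pik3cb and Pik3ca in vehicle 2 and vehicle 3. Pik3cd, the delta subunit, had 60.1, 105 and 131 TPM, and Pik3cg, the gamma subunit, had 26.5, 56.9 and 65.3 TPM. Pik3cb, the beta subunit, had 30.7, 39.1 and 46.3 TPM, and Pik3ca, the alpha subunit, had 13.1, 18.8 and 21.8 TPM. In vehicle 1 the beta transcript was above gamma by TPM but below it by CPM, at 76.7 against 94.8. The delta to alpha ratio was 4.58, 5.58 and 5.99, and the beta to alpha ratio was 2.34, 2.08 and 2.12. Pik3cd and Pik3cg were the 2 of 19 genes of the list that differed 2-fold, both lowest in vehicle 1 and highest in vehicle 3, a share below the background of 18.4%. The gamma adaptors Pik3r5 and Pik3r6, chosen after their values were seen, had 38.2, 55.0 and 72.2 TPM and 13.5, 21.4 and 25.7 TPM. Pik3r1, the p85 alpha regulatory subunit, stayed at 36.2, 34.2 and 36.7 TPM. Akt1, the main downstream kinase, had 232, 204 and 240 TPM. For 15 of the 18 neighbouring pairs in this list the ranges overlapped.

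**Figure D5:**
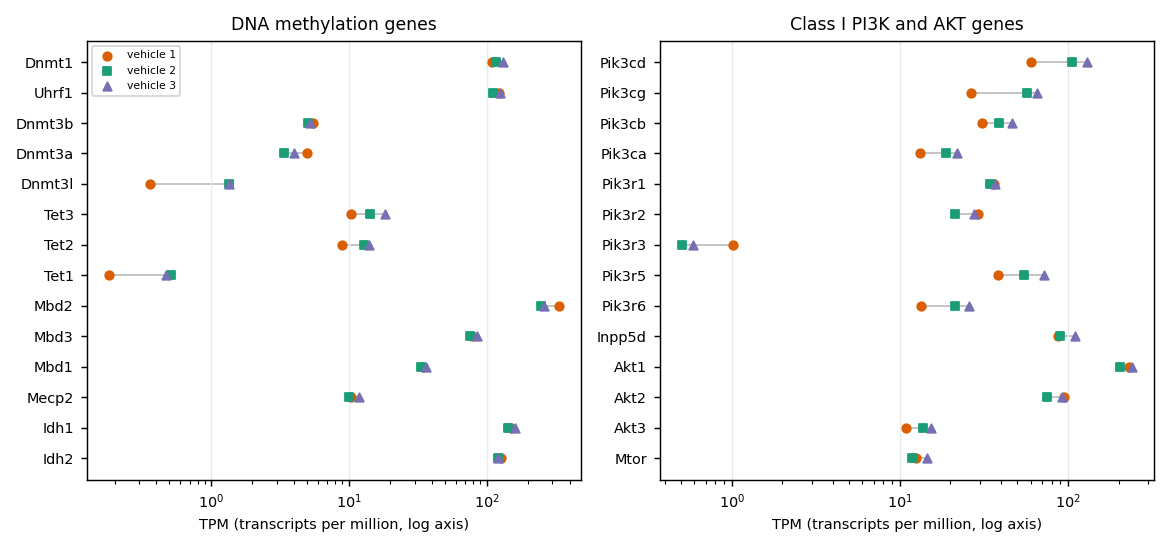
TPM on a log axis of genes of DNA methylation (left) and of class I PI3K and AKT signalling (right), one point per vehicle-treated library and a grey line over the range. By TPM, Dnmt3a lies below Dnmt3b in each library, and Pik3cd lies above the other catalytic subunits in each.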

How the data were processed

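RNA was extracted with the RNeasy Plus Micro kit, amplified with SMART-Seq v4 and made into Nextera XT libraries, per the labels' protocols. This chemistry does not mark strand, so overlapping and antisense genes share reads. The authors deposited whole-number read counts per gene, and the submitters' processing notes name STAR, featureCounts and mm10. Their versions and settings are not given in the sources used here. Column 3 of the deposited table holds another quantity, the gene length in bases, which the file headers name. Totals are counts over the 14992 genes listed. TPM was computed from counts and that length, and CPM with TMM scaling in edgeR 4.0.16 (R 4.3.3) over the 3 vehicle libraries, with DESeq2 1.42.0 size factors as an alternative. The comparison between libraries kept genes with a mean CPM of at least 1 and called a ratio of at least 2. The biological coefficient of variation is the square root of edgeR's common dispersion, tested on simulated data. No test was run, since the values describe 1 group.

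Genes were named from the 30 with the highest mean TPM, the 4 highest of each list and the 10 steadiest with a mean of at least 100 TPM. Further sources were up to 10 genes with the largest ratio for each highest library (mean CPM of at least 5, at least 10 counts in each), and genes of DNA methylation and PI3K. Not every gene that met these rules is named, and no further rule set which were left out. Other list members were picked with their values known. The vehicle group, the 35 lists and the rules were chosen with earlier results of these data known. Promoter windows were matched by symbol. Gene positions come from RefSeq GRCm38.p6, which matched 14839 genes. Alternatives were other scalings, filters, folds, totals and leaving out each library.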

Additional observations from a re-analysis of the deposited data

How the results depend on the processing

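No paired analysis was possible because the vehicle libraries were described alone and no groups were compared. Without the length term, the mean share of the 100 most abundant genes was 20.8% and not 38.0%, and that of the primary, secondary and late neutrophil lists 0.789%, 4.36% and 4.32% and of ribosomal protein genes 4.52%. With the 10 most abundant genes out of the total, the shares were 24.1%, 1.33%, 2.20%, 2.20% and 13.96%. Without the length term, rank was counted as moved for 127 of the 192 genes that met the naming rules. With the neutrophil lists out, an alternative chosen after seeing the data, ribosomal protein genes took 14.3%. The count of genes differing 2-fold was 2141, against 4646 with no filter, 1334 at a mean CPM of at least 5, 4555 at a fold of 1.5, 844 at a fold of 3 and 101 to 1849 when each library was left out. The 101 came without vehicle 1. For genes highest in vehicle 1, 1320 became 2469, 801, 2328 and 621 under the same filters and folds. The biological coefficient of variation was 10.8% without vehicle 1 and 35.6% without vehicle 3. List means without vehicle 1 moved by less than 1 SD, but that SD holds vehicle 1. The highest library was the same by CPM as by TPM in 32 of 34 lists and the lowest in 29 of 34. Depth limits the lowest genes: a count of 0 allows up to 3 counts, which correspond to 0.089, 0.087 and 0.051 CPM in the 3 libraries, for counting error only.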
